A study of Mus musculus with 61 samples.

Results

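SALL1 sites listed in microglia of the wild-derived mouse strains PWK and SPRET, but not in C57 microglia, are described here. Of 3627 SALL1 peaks in the PWK list, 1226 overlapped no peak of the C57 list by even 1 bp and are called PWK-only sites. Of 2245 peaks in the SPRET list, 653 were SPRET-only. The C57 list held 15410 peaks, so the 3 lists held 21282 in all. Each list held as many peaks as its header states, but the study's text gives more WT SALL1 peaks than the deposited list. Some sites may therefore overlap C57 peaks not analysed here. The study's text also gives more strain-specific SALL1 peaks, over pairwise comparisons of strains, than the 3 lists hold peaks in all. The counts of PWK-only and SPRET-only sites hold for the deposited lists alone. The sites were chosen by their absence from the C57 list, and that absence is therefore not a finding. The lists were kept apart throughout, and the other peaks of each list (2401 for PWK and 1592 for SPRET, called shared) served for comparison.

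The series measured chromatin of mouse brain cells by ChIP-seq in 61 samples, of which 30 were input controls not used here. SALL1 was profiled in microglia, the resident macrophages of the brain, with 2 libraries each from WT mice (labelled C57/Bl6), PWK and Spret mice (both labelled wild type) and EKO mice, which carry a homozygous deletion of a distant Sall1 super-enhancer. The labels place SALL1 in sorted CD45+ CD11b+ CX3CR1+ microglia, whereas the study's text names nuclei sorted for SALL1 and PU.1. p300 was profiled in 3 WT libraries (1 of microglia and 2 of PU1 nuclei), SMAD4 in 2 WT libraries and 2 libraries labelled mutant, and H3K27ac in 2 WT and 2 EKO libraries of microglia and of PU1 (microglial), NeuN (neuronal) and Olig2 (oligodendrocyte lineage) nuclei. C57 and EKO mice were adult males per the study's methods, and the age and sex of the PWK and SPRET mice are not given in the sources used here. None of the openness, p300, SMAD4 or H3K27ac data came from PWK or SPRET mice, so each value below says what the C57 genome carries at a site listed in another strain. The labels of the mutant SMAD4 libraries conflict, their titles and genotypes naming a conditional SMAD4 deletion and their descriptions, like the study's text, the EKO. The sources do not say whether libraries of a group came from separate animals, so p-values measure only the spread between these libraries.

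SALL1 is a zinc-finger transcription factor that maintains the identity of microglia. It binds AT-rich DNA, mostly at enhancers that lineage factors such as PU.1 have opened. The study's text proposes that the AT-rich MEF2 motif is also bound directly by SALL1. p300 is a co-activator that acetylates histones at active enhancers, SMAD4 carries TGF-beta signals into the nucleus, and H3K27ac marks active promoters and enhancers. PWK and SPRET mice differ from C57 mice at many single bases and short insertions or deletions, which makes them a natural source of altered binding sites.

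In the microglia table the labelled cell type matched its markers. A window within 1 kb of the start site carried more than 16 normalized H3K27ac tags in WT for 31 of 34 microglia identity genes, 3 of 12 border macrophage markers, 0 of 18 neuron markers, 2 of 15 oligodendrocyte lineage markers and 1 of 10 astrocyte markers. EKO library 1 was higher throughout: the median of log2(tags + 1) was 6.42 there, 5.57 in WT library 1, 5.20 in WT library 2 and 4.95 in EKO library 2. The depths recovered from the tag steps were 24357795 and 10047696 tags in WT and 9963454 and 13392915 tags in EKO.

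The reference sequence at a few of these sites shows the letters that were present where SALL1 was not listed. Each stretch holds 200 bp around a peak centre in the C57BL/6J reference (GRCm38, the assembly of mm10; RefSeq), read 5′ to 3′ on the plus strand. Capitals mark matches, on either strand, to 9 motifs searched: SALL (AATATT), PU.1 (GAGGAAGT), PU.1-IRF (GGAANNGAA), MEF2 (AAAAATAG), SMAD (CAGACA), AP-1 (TGANTCA), C/EBP (TTGCNNAA), RUNX (AACCACA) and E-box (CACGTG). The PWK and SPRET alleles were not read. The first 3 were listed in both wild-derived strains, and the last 2 were the highest-scoring single-strain sites of their list that lay in an open window.
Ccdc85a intron (chr11:28573329-28573528): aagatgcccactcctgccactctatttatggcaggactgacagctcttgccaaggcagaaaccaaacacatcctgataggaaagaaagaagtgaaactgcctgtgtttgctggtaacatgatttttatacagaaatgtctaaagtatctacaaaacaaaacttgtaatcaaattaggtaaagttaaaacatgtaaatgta
C5ar2 intron (chr7:16238603-16238802): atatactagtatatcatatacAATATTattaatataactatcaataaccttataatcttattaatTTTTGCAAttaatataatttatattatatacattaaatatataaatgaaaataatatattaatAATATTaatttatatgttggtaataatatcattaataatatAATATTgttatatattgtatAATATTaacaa
Cxcl13 upstream (chr5:95941703-95941902): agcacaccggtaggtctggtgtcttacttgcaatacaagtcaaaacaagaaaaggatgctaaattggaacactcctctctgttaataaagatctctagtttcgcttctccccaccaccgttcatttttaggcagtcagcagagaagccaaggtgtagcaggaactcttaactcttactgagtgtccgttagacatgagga
Samd12 intron, nearest start site Ext1 (chr15:53557954-53558153): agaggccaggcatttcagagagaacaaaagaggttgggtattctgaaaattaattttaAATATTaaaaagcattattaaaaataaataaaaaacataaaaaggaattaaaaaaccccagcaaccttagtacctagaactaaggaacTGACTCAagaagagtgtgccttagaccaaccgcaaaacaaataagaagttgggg
Hs3st1 intron (chr5:39630909-39631108): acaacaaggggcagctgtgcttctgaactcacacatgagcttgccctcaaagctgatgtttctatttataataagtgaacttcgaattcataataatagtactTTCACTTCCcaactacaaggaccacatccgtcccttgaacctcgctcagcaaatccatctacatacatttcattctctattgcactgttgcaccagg

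The stretches differed in composition. C5ar2 encodes a receptor for the complement fragment C5a, and the stretch in its intron had 10.0% G and C, was 68.5% repeat-masked and held 4 SALL matches and 1 C/EBP match. The Samd12 stretch (33.0% G and C) held 1 SALL match and 1 AP-1 match, and the Hs3st1 stretch (42.0%) held 1 PU.1-IRF match. No letters of the 9 motifs were found at Ccdc85a or Cxcl13.

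By their enrichment scores, which are the authors' and rank peaks within a list only, the wild-strain-only sites were the weaker part of each list. PWK-only sites had a median score of 11 (lower and upper quartiles 10 and 14, highest 84) and shared PWK peaks one of 17. SPRET-only sites had a median of 15 (13 to 19, highest 64) and shared SPRET peaks one of 21. Only 27.9% of PWK-only sites, but 68.7% of shared PWK peaks, lay at or above the median score of the whole list; for SPRET the shares were 27.1% and 62.9%. The IDR score, which measures reproducibility between the 2 libraries of a strain and reaches 1000, had a median of 806.5 at PWK-only, 775 at SPRET-only and 1000 at shared peaks of either list.

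Nearness to C57 peaks varied widely. The median distance to the nearest C57 peak was 5201 bp for PWK-only and 5546 bp for SPRET-only sites. A C57 peak lay within 1000 bp of 257 PWK-only sites (21.0%) and 105 SPRET-only sites (16.1%), whereas none lay within 100 kb of 143 (11.7%) and 76 (11.6%). Just inside the rule, the closest PWK-only sites were 4 bp (nearest to Ankrd50), 5 bp (Fam102b) and 7 bp (Cdkn2aipnl) from a C57 peak, and the closest SPRET-only sites 2 bp (Slc7a15), 3 bp (Eif4b) and 13 bp (Hook1). Just outside it, the PWK peaks with the smallest overlap shared 2 bp (Tmc7), 5 bp (Fzd4) and 9 bp (Marcks) with a C57 peak, and the SPRET peaks 2 bp (Ccr6), 5 bp (Tbc1d1) and 6 bp (Rnf5). A few base pairs thus separated members from non-members at the margin.

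Few of the sites recurred in the other strain. PWK-only and SPRET-only sites overlapped each other at 56 places, 4.57% of PWK-only and 8.58% of SPRET-only sites, while 25.1% of shared PWK peaks had a SPRET peak and 38.0% of shared SPRET peaks a PWK peak. No wild-strain-only site overlapped any of the 7 EKO SALL1 peaks (0 of 1226 and 0 of 653). A count of 0 allows up to 0.245% and 0.459% for counting error only. Other peaks seldom overlapped them either: 4 of 2401 shared PWK, 2 of 1592 shared SPRET and 4 of 15410 C57 peaks. The 0 therefore does not set these sites apart. The sites fell in the same parts of genes as other SALL1 peaks. Introns held 55.3% of PWK-only and 54.7% of SPRET-only centres, stretches between genes 30.1% and 33.7%, and promoters, within 1 kb of a start site, 8.40% and 6.74%. Introns held 55.9% of C57 peaks.

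Most of the sites, at least 66.9% in each list, lay in chromatin that was open in C57 microglia, fewer than of shared peaks. Open chromatin is taken here as the 133129 windows of 1000 bp in the microglia H3K27ac table, which the study's methods describe as merged ATAC-seq peaks. Of the PWK-only sites, 820 of 1226 (66.9%, 95% Wilson interval 64.2 to 69.5) overlapped a window, against 96.4% of shared PWK peaks. Of the SPRET-only sites, 464 of 653 (71.1%, 67.5 to 74.4) did so, against 97.4% of shared SPRET peaks and 86.6% of all C57 peaks. Wilson intervals over peaks cover counting error only and hold no spread between libraries. The shares were lower on both sides of the median score. Below it, 62.3% of PWK-only and 70.2% of SPRET-only sites were in a window, against 93.3% and 95.6% of shared peaks. At or above the median score of their list, 78.7% of PWK-only and 73.4% of SPRET-only sites were in a window, against 97.8% and 98.5% of shared peaks. Such a split does not match scores between the groups, and the part of peak score in the gap was not tested.

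The windows also differed in the genotype whose ATAC list named them, which was read from the origin names of the table and is an inference. Among windows under PWK-only sites, 79.0% came from both genotypes, 14.5% from WT alone and 6.46% from EKO alone. The SPRET-only shares were 83.0%, 12.3% and 4.74%. Shared peaks fell in windows of both genotypes in 96.2% (PWK) and 96.3% (SPRET), and over all windows the share was 69.5%.

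**Figure D1:**
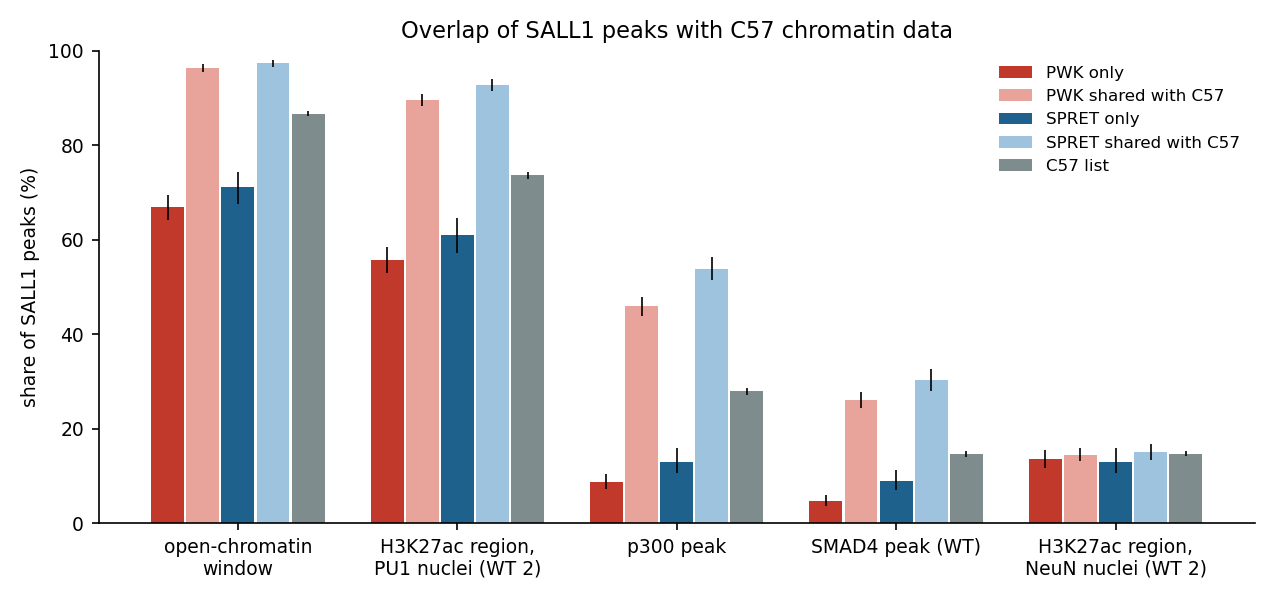
Share of SALL1 peaks (%) that overlap, by at least 1 bp, an open-chromatin window, a called H3K27ac region of PU1 or NeuN nuclei (WT library 2), a p300 peak or a WT SMAD4 peak; bars are the PWK-only, shared PWK, SPRET-only, shared SPRET and C57 peaks, and error bars are 95% Wilson intervals (counting error only). Both wild-strain-only groups sit far below the shared peaks of their list except in the NeuN set, where the 5 shares lie between 13.02% and 15.0%.

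The co-activator and SMAD4 were listed at a small share of the sites in C57 microglia. A p300 peak (9177 in the list) overlapped 107 PWK-only sites (8.73%, 7.27 to 10.4) and 85 SPRET-only sites (13.02%, 10.7 to 15.8), against 45.9% and 53.9% of shared peaks and 27.9% of C57 peaks. A WT SMAD4 peak (4024 in the list) overlapped 58 PWK-only sites (4.73%) and 58 SPRET-only sites (8.88%), against 26.1% and 30.3% of shared peaks. The study's text gives more WT SMAD4 peaks than this list, and the SMAD4 shares hold for the deposited list alone. In the libraries labelled mutant, with 2333 SMAD4 peaks, the counts were 36 (2.94%) and 32 (4.90%), and the shared peaks again stood higher, at 16.1% and 18.3%. The gap held among sites in open windows, where p300 was listed at 12.9% of PWK-only and 18.1% of SPRET-only sites against 47.6% and 55.2% of shared peaks. It also held among sites whose window passed the H3K27ac level filter described later (15.96% and 24.6% against 51.3% and 59.1%). Below the median score of their list, p300 was listed at 7.58% of PWK-only and 11.1% of SPRET-only sites, and at 10.5% of C57 peaks. SMAD4 stood there at 3.73%, 7.56% and 4.18%. Shared peaks below the median had p300 at 33.5% and 41.3%. At or above the median the p300 shares were 11.7% and 18.1%, against 44.6% of C57 peaks. The part of peak score or H3K27ac level in the gap was not tested. Of the 406 PWK-only sites outside windows, 405 had neither p300 nor SMAD4, and of 189 such SPRET-only sites 188 had neither. Shared peaks outside windows were alike, with neither at 84 of 86 in the PWK list and 39 of 41 in the SPRET list.

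Both p300 and SMAD4 were listed at 31 PWK-only and 32 SPRET-only sites. The highest-scoring of these for PWK lay in an intron of Dgki, a diacylglycerol kinase gene (chr6:37196850-37197201, score 33, 51773 bp from the nearest C57 peak), where the WT libraries held 76.8 and 59.7 normalized H3K27ac tags (here and later in the order library 1, library 2) and the EKO libraries 54.2 and 21.6, so both EKO values were below both WT values. Its neighbours in rank were nearest to Tle3 (score 24, 120581 bp from the start), Irf2 (20), Rasgrp3 (19) and Man1a2 (19). Irf2 encodes an interferon regulatory factor, and the peak in its intron (chr8:46778051-46778465) sat in a window with 138 and 109 tags in WT and 177 and 62.7 in EKO. For SPRET the sites lay near the copper transporter gene Slc31a2 (score 29), Chn2 (27), Usp24 (25), Cux1 (25) and the choline transporter gene Slc44a2 (25). The last was at a promoter (chr9:21321494-21321895, 996 bp from the start site), with 89.1 and 51.8 tags in WT and 39.1 and 29.1 in EKO.

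Where the sites lay in open windows, those windows carried less H3K27ac in WT microglia than windows under shared peaks, and more than most open windows. H3K27ac is given as tags per 10000000 in the 1000-bp window. In WT libraries 1 and 2 the median was 24.6 and 20.9 over 818 PWK-only windows, 51.3 and 38.8 over shared PWK windows, 30.2 and 25.9 over 464 SPRET-only windows, 63.6 and 45.8 over shared SPRET windows, 34.1 and 26.9 over C57 windows and 9.03 and 7.96 over all windows. The order of these groups was the same in both libraries, and the quartile ranges of all SALL1 groups overlapped. A mean above 16 tags over the 4 libraries, the level filter, was passed by 68.8% of PWK-only and 70.0% of SPRET-only windows, 88.2% and 90.1% of shared windows and 41.5% of all windows.

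**Figure D2:**
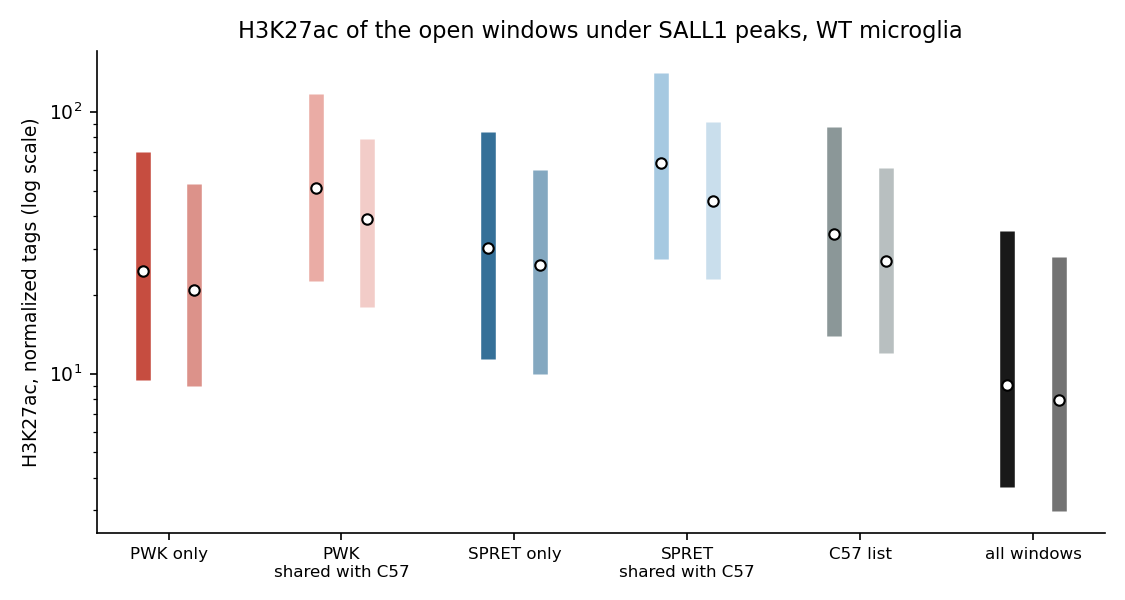
H3K27ac of open windows under SALL1 peaks in WT microglia, in normalized tags on a log axis; for each group the left bar is WT library 1 and the right bar WT library 2, bars span the quartiles and circles are medians. Medians of PWK-only (24.6 and 20.9) and SPRET-only windows (30.2 and 25.9) lie between those of all windows (9.03 and 7.96) and of shared peaks.

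At single sites the acetylation could be high. The PWK-only site with the most H3K27ac in WT, which overlapped p300 and SMAD4 peaks, lay 19835 bp from the start of Sfmbt1, a polycomb-associated gene (chr14:30694795-30695234), with 645 and 532 tags in WT and 930 and 329 in EKO. The others of the top 5 lay near E2f3, a cell-cycle factor gene (700 and 417 in WT), Nfatc1 (678 and 427), Tekt3 (519 and 401) and Nav1 (593 and 323). Among SPRET-only sites the top window lay in an intron of Pan3, a gene of mRNA deadenylation (chr5:147542235-147542604, score 36), with 871 and 660 tags in WT and 1421 and 432 in EKO. The next lay in an intron of Ski, a repressor of SMAD signalling (chr4:155200932-155201219), with 804 and 505 in WT and 1067 and 338 in EKO, and overlapped a SMAD4 peak by 245 bp. Hic1 (529 and 368), Slc7a15 (543 and 324) and Acox3 (527 and 324) followed. All of these sites but those near Nav1, Ski and Hic1 lay within 1000 bp of a C57 peak.

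In sorted nuclei the sites were acetylated mainly in the PU1 population. In PU1 nuclei, called H3K27ac regions covered 25.4% and 55.8% of PWK-only sites in the WT libraries and 53.3% and 52.2% in the EKO libraries. SPRET-only sites were covered at 32.2% and 61.0% in WT and 56.4% and 53.6% in EKO. WT library 1 had 11149 called regions against 25990 to 36057 in the other PU1 libraries, and it was the low one for all peak groups. Shared PWK peaks were covered at 60.02% and 89.6% in WT, and shared SPRET peaks at 69.2% and 92.8%. In NeuN nuclei the cover was 14.2% ± 0.923 (SD, n = 2 libraries) of PWK-only and 13.2% ± 0.325 of SPRET-only sites in WT, and in Olig2 nuclei 14.6% ± 0.173 and 14.2% ± 0.975. These values were near those of shared peaks in NeuN (14.8% and 15.6%) and Olig2 nuclei (13.7% and 15.4%). With 2 libraries a group, an exact permutation test of WT against EKO cannot go below 0.33, and none is given.

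**Figure D3:**
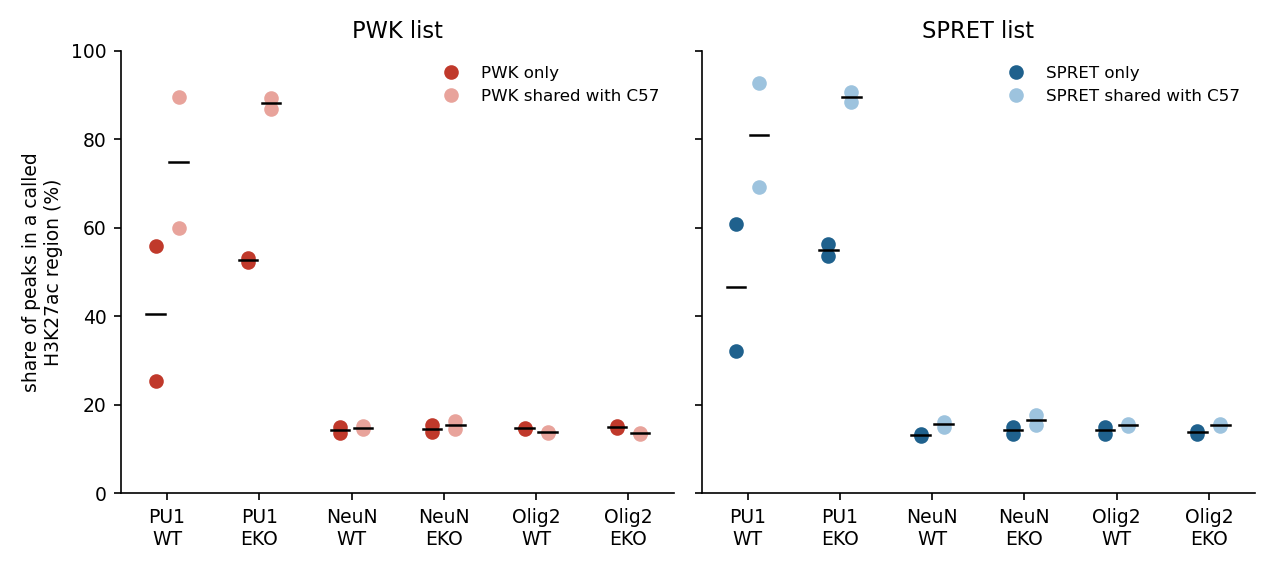
Share of SALL1 peaks (%) inside a called H3K27ac region of sorted nuclei, by cell type and genotype, for the PWK list (left) and the SPRET list (right); each dot is 1 library and the black lines are means of 2 libraries. In PU1 nuclei the wild-strain-only sites lie below the shared peaks of the same library, while in NeuN and Olig2 nuclei all values lie between 13.02% and 17.6%.

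Sites outside open windows were less often acetylated. In WT library 2 of the PU1 nuclei, 27.8% of 406 closed PWK-only sites and 26.5% of 189 closed SPRET-only sites lay in a called region, against 69.6% of PWK-only sites in windows and 348 of the 464 SPRET-only sites in windows. For closed C57 peaks the share was 23.5%. The NeuN shares at closed sites were 6.16% and 6.88%, and the Olig2 shares 8.37% and 8.99%.

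Base composition set PWK-only sites apart more than SPRET-only sites. Over the 200 bp around each centre, the median share of G and C was 39.5% at PWK-only and 44.0% at shared PWK peaks, 44.0% at SPRET-only and 45.5% at shared SPRET peaks, and 50.5% over all windows. At least 50% of the stretch was repeat-masked at 11.99% of PWK-only and 9.80% of SPRET-only sites, against 6.13% and 4.27% of shared peaks. The AT-rich SALL letters AATATT were found at 17.8% (15.7 to 20.02) of PWK-only sites and 9.63% of shared PWK peaks, at 10.1% (8.02 to 12.7) of SPRET-only sites and 8.04% of shared SPRET peaks, and in 2.49% of all windows. Among closed sites the order turned, with 24.6% of PWK-only against 53.5% of 86 shared PWK peaks and 36.6% of C57 peaks. The share of G and C moves with this motif, and its part in the motif shares was not tested.

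Matches to lineage factors were less common in the C57 sequence of these sites than at shared peaks. PU.1 letters (GAGGAAGT) were found at 7.26% of PWK-only and 8.88% of SPRET-only sites, against 16.3% and 15.6% of shared peaks, 13.3% of C57 peaks and 9.34% of all windows. The PU.1-IRF letters stood at 11.9% and 12.9% against 19.8% and 20.1%, and RUNX at 5.46% and 5.36% against 9.25% and 8.04%. Within open windows alone, PU.1 was found at 9.15% of PWK-only and 11.2% of SPRET-only sites and at 16.8% and 15.99% of shared peaks. MEF2 letters were at 4.00% of PWK-only and 1.84% of SPRET-only sites, against 4.63% and 4.40%. C/EBP stood at 11.1% and 10.3% (shared 14.9% and 13.5%), SMAD at 16.8% and 17.2% (19.8% and 21.6%), AP-1 at 5.87% and 8.27% (6.59% and 7.66%) and the E-box at 2.28% and 2.14% (2.75% and 2.07%). Over all windows, PU.1-IRF letters were found in 9.72%, MEF2 in 1.21%, C/EBP in 9.36%, RUNX in 5.55%, SMAD in 18.9%, AP-1 in 7.64% and the E-box in 4.86%. A match describes the letters of a window and is not a bound site, and a missing match says only that these letters are not in it.

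**Figure D4:**
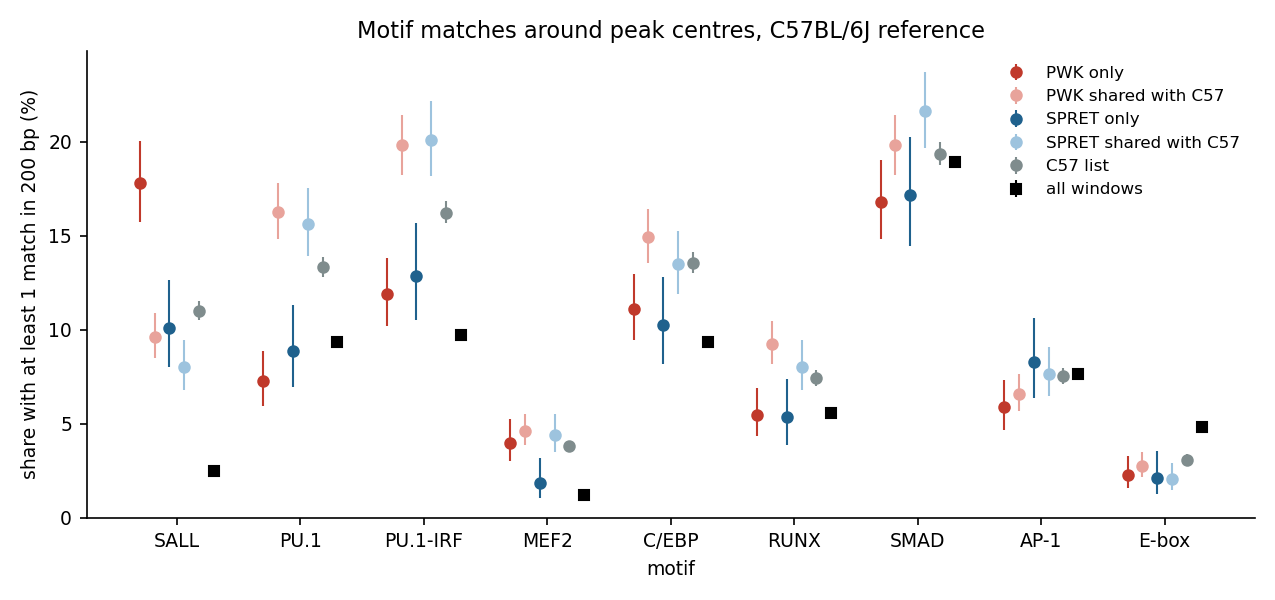
Share of sites (%) with at least 1 match to each motif, on either strand, in the 200 bp around the centre in the C57BL/6J reference; colours are the 5 peak groups, black squares are all open windows, and error bars are 95% Wilson intervals (counting error only). PWK-only sites lie highest for SALL (17.8%) and both wild-strain-only groups lie below the shared peaks for PU.1 (7.26% and 8.88%).

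The highest-scoring PWK-only sites were far apart in kind. The top one, with a score of 84, lay in an intron of the predicted gene Gm47283 on chromosome Y (chrY:90797966-90798236) and was in no open window. The second lay in an intron of Samd12, with the start of Ext1, a heparan sulfate polymerase gene, 211895 bp away (chr15:53557878-53558230, score 51); its window held 7.39 and 3.98 tags in WT and 35.1 and 9.71 in EKO and failed the level filter. An intronic peak of C5ar2 (score 50) and one of Nav3, which encodes a microtubule-associated guidance protein (score 46), were in no window. The site with its nearest start at Robo2, an axon guidance receptor gene (chr16:73596956-73597348, score 39), lay between genes, 813760 bp from that start. Its window held 75.1 and 63.7 tags in WT. The site nearest to Cxcl13, a B-cell chemokine gene (chr5:95919456-95919726, score 36), was 37360 bp from the start. Its window held 2.46 and 1.00 tags in WT.

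Among SPRET-only sites the leader had a score of 64 and lay in an intron of Hs3st1, a heparan sulfate sulfotransferase gene (chr5:39630862-39631156), 1150407 bp from the nearest C57 peak. The second lay in an intron of Ssh2, 19710 bp from the start of the coronin gene Coro6 (chr11:77442572-77442830, score 53), only 27 bp from a C57 peak. It overlapped a p300 peak by 187 bp, and its window held 253 and 139 tags in WT and 298 and 98.6 in EKO. Sites nearest to Bhlhe23 (score 49), Rab28 (47) and Fam84a (44) were in no open window and 128269 to 755390 bp from a C57 peak, and an intronic site of Ltn1, a ubiquitin ligase gene (score 42), was in a window with 11.5 and 5.97 tags in WT. Among the 6 highest-scoring sites of each list, only that nearest to Coro6 overlapped a p300 peak and only that nearest to Robo2 a WT SMAD4 peak. In the SMAD4 list labelled mutant, peaks overlapped the sites nearest to Hs3st1 (by 294 bp, its full length), Robo2 (181 bp) and Coro6 (37 bp).

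The 56 sites listed in both wild-derived strains were more often open than other wild-strain-only sites. An open window lay under 48 (85.7%) of them, and p300 was listed at 9 (16.1%). By their PWK coordinates, called regions of the PU1 nuclei covered 46.4% of them in WT library 1 and 73.2% in WT library 2. Their 48 windows had median H3K27ac of 48.4 and 33.8 tags in WT libraries 1 and 2, against 24.6 and 20.9 for all PWK-only windows. By summed rank of the scores the first was the Ccdc85a site, with scores of 27 in PWK and 35 in SPRET, no open window and 925928 bp to the nearest C57 peak. The C5ar2 site scored 50 and 25. Near Cxcl13 a pair of sites was listed in both strains, with scores of 28 and 30 at 15148 bp from the start and of 36 and 24 at 37360 bp, in windows with at most 12.9 tags in WT.

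The other leading sites of both strains carried more acetylation. Near Aftph (chr11:20742679-20742951, scores 28 and 27) the window held 442 and 312 tags in WT and 657 and 237 in EKO, 548 bp from a C57 peak. Near Atf7ip, a chromatin regulator gene (scores 21 and 33), it held 130 and 75.6 in WT and 55.2 and 23.9 in EKO, a log2 change of −1.70 with an SE of 0.255 (limma adjusted p = 5.70e-05, by the test described later). The window near Ifngr1, the interferon gamma receptor gene (scores 23 and 28), held 25.9 and 38.8 in WT and 64.2 and 23.9 in EKO, and a p300 peak overlapped the site by 224 bp. Clec4a2, a myeloid lectin receptor gene (25 and 32), had 6.98 and 6.97 tags in WT, and Cdkn2aipnl (19 and 24) had 63.6 and 39.8.

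Several genes were nearest to a run of wild-strain-only sites, which is no trait of these sites. Another peak of the same group lay within 10 kb of 17.1% of PWK-only and 9.80% of SPRET-only sites. Among shared peaks the shares were 23.6% and 22.2%, and among C57 peaks 58.3%. The groups differ in size, and its part in these shares was not tested. Nav3 was nearest to 12 PWK-only sites, all in its introns over 567 kb, with scores from 10 to 46; 1 was in an open window. Next came Dock4, an activator of Rac signalling (9 sites, 4 open), and Coro6 (8 sites, 2 open, 0 inside the gene). The cytosolic phospholipase gene Pla2g4a was nearest to 8 sites (1 open, 0 inside the gene). Cltc, the clathrin heavy chain gene, was nearest to 6 (2 open), and Epb41l2, Mef2c and Mbnl1 also had 6. Among SPRET-only sites the RNA-binding gene Qk was nearest to 9 (3 open), Sall1 itself to 7 (4 open), the phosphodiesterase gene Pde3b to 6 (2 open) and Fkbp5, a steroid receptor co-chaperone, and Nav3 to 5 each. All of these genes also had C57 SALL1 peaks nearest to them, from 7 at Fkbp5 to 52 at Qk. In all, 915 genes were nearest to a PWK-only site and 532 to a SPRET-only site. The 183 genes in both sets were 20% of the first and 34.4% of the second, and 77.4% and 78.8% of the genes also had a C57 peak.

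Known microglial genes were among the nearest genes. The gene lists were drawn up with earlier results of these data known. Of 34 microglia identity genes, 11 had 29 PWK-only sites (2.37% of sites, against 1.83% of shared PWK peaks) and 8 had 16 SPRET-only sites (2.45% against 2.64%). P2ry12, the purinergic receptor gene of surveying microglia, had 3 PWK-only sites and 1 SPRET-only site. At the highest-scoring, in an untranslated region (chr3:59216824-59217094, score 17), H3K27ac was 82.9 and 46.8 tags in WT and 18.1 and 15.7 in EKO, so the EKO libraries were both lower. In the SPRET list the leaders were a site 437740 bp from the start of the lineage factor gene Mef2c (chr13:83066166-83066423, score 25, 37 bp from a C57 peak, 449 and 257 tags in WT), one near Bin1 and one near Sall1. Of 28 TGF-beta and SMAD genes, 5 had 10 PWK-only sites, among them Smad3, Tgfbr1 and Tgfbr2, and 3 had 4 SPRET-only sites (Ski, Tgfbr1 and Tgfbr2). These were 0.816% and 0.613% of sites, against 0.375% and 0.503% of shared peaks. Of 31 genes for PU.1, IRF, MEF2, MAF, C/EBP and AP-1 factors, 10 had 18 PWK-only and 6 had 8 SPRET-only sites. Their shares, 1.468% and 1.225% of sites, were below the 1.791% and 2.575% of shared peaks.

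Other lists had few sites. The 23 inflammatory cytokine and innate receptor genes had 5 PWK-only sites, at Il1a, Il1b, Il6 and Tlr1, and 2 SPRET-only sites, at Il1b and Nlrp3 (0.408% and 0.306% of sites, against 0.666% and 1.26% of shared peaks). The 26 lipid handling and disease-associated microglia genes had 2 (Abcg1 and Trem2) and 3 (Ch25h, Ctsd and Lgals3), or 0.163% and 0.459% against 0.333% and 0.377% of shared peaks. Border macrophage markers had 0 PWK-only and 3 SPRET-only sites (Cd38, F13a1 and Mrc1), against 5 and 1 shared peaks. Astrocyte markers had 2 PWK-only sites, both with Gja1 as the nearest start but 358164 and 412472 bp from it. Neuron and oligodendrocyte lineage markers had none. Shared peaks also had 0 or 1 in each list for these markers. A count of 0 allows shares of up to 0.245% of PWK-only and 0.459% of SPRET-only sites for counting error only.

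Around Sall1 itself there were 3 PWK-only and 7 SPRET-only sites. SPRET-only sites ran from an intron 3737 bp from the start to 525647 bp upstream. In the intronic window (chr8:89040232-89040618) H3K27ac was 129 and 75.6 tags in WT and 6.02 and 4.48 in EKO. In the farthest window (chr8:89569643-89569976) it was 50.5 and 37.8 in WT and 3.01 and 1.49 in EKO. In both the EKO libraries lay far below the WT libraries. The study's text reports complete loss of H3K27ac at the Sall1 locus in EKO microglia, so low EKO values at this locus are a known effect of the deletion. A site 274596 bp upstream was listed in both wild-derived strains, 219 bp from a C57 peak, and its window held 23.4 and 17.9 tags in WT and 3.01 and 0.00 in EKO, too few to be tested. The study's text places the deleted super-enhancer upstream of Sall1, between these called windows and apart from both, but without coordinates, so whether another site lay inside it was not tested.

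Whether acetylation at the sites changed when Sall1 was lost was tested in C57 mice, by limma on quantile-normalized log2(tags + 1) over all windows past the level filter. Over 55285 windows, 7.56% were lower in EKO and 8.68% higher by more than 2-fold at an adjusted p (Benjamini-Hochberg, over all of them) under 0.05. Of 563 PWK-only windows tested, 40 were lower (7.10%) and 52 higher (9.24%). Of 325 SPRET-only windows, 31 were lower (9.54%) and 18 higher (5.54%). The shares were thus near the background in PWK, and in SPRET-only windows losses outnumbered gains, as they did in shared SPRET windows (96 and 63 of 1397). The median log2 change was −0.04 over PWK-only, −0.22 over SPRET-only and −0.03 over all windows tested.

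These counts rested on single libraries and on the scaling. With the values as deposited, 0.128% of all windows were lower and 0.814% higher, and the counts were 0 and 6 in PWK-only and 2 and 1 in SPRET-only windows. At an unadjusted p below 0.05, limma on those values had 3 PWK-only windows lower and 39 higher, against 670 and 3047 of all 55285 windows. DESeq2 on recovered tags called 32 (5.68%) and 46 (8.17%) PWK-only windows, against 5.13% and 7.76% of all windows. On all 4 libraries edgeR called 43 (7.64%) and 57 (10.1%) PWK-only windows, against 7.32% and 10.3% of all windows. Leaving out WT library 1 or EKO library 1 left no window called by limma in the whole table. In those fits the median log2 change of PWK-only windows, relative to all windows, was −0.024 and 0.013. Without WT library 2 or EKO library 2, limma called fewer windows in both lists and over all windows. In shared SPRET windows losses no longer outnumbered gains without WT library 2.

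The origin of a window moved with the direction, and not at these sites alone. Of 33 tested PWK-only windows from the EKO ATAC list alone, 2 were lower and 11 higher, whereas of 42 from the WT list alone 9 were lower and 1 higher. Of SPRET-only windows, 1 of 10 from the EKO list was lower and 2 higher, and 4 of 21 from the WT list were lower. C57 peaks had the same split, with 7 of 166 windows from the EKO list lower and 33 higher, and 63 of 229 from the WT list lower and 3 higher. Shared SPRET windows from the EKO list did not, with 2 of 13 lower and none higher, and of 26 shared PWK windows from that list 1 was lower and 2 higher. The level filter is a mean over the 4 libraries, so windows low in 1 genotype could pass it only through the other. That choice favours such a split. The split over all tested windows is not given here.

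The largest losses near SPRET-only sites were at Mlph, Sall1 and Eva1a. At Mlph, which encodes the melanosome transport protein melanophilin (SPRET-only, chr1:90918136-90918496, with p300 and SMAD4 peaks), H3K27ac was 134 and 58.7 tags in WT and 0.00 and 2.24 in EKO, with a log2 difference of −5.66 ± 0.617 (SE, limma adjusted p = 1.27e-06). The Sall1 windows above fell by 4.59 ± 0.434 (limma adjusted p = 2.12e-07) and by 4.33 ± 0.654 (limma adjusted p = 5.90e-05) on the log2 scale. Eva1a, a regulator of autophagy and cell death, completed the 4 largest losses near SPRET-only sites, with 59.1 and 71.7 tags in WT and 9.03 and 4.48 in EKO. In none of the 4 did the groups overlap, but these windows were chosen for their change, which favours such a separation.

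Near PWK-only sites the largest loss lay in an intron of Aak1, 58705 bp from the start of Nfu1 (chr6:86950380-86950683, score 9, 127493 bp from a C57 peak), with 75.5 and 60.7 tags in WT and 10.0 and 3.73 in EKO, a log2 change of −3.93 ± 0.445 (limma adjusted p = 2.07e-06). Rab3ip fell from 26.7 and 34.8 to 12.04 and 2.99, Kcnk12, a potassium channel gene whose site was listed in both strains, from 45.6 and 18.9 to 18.1 and 2.24, and Fam102b from 70.2 and 70.7 to 31.1 and 7.47. In each of these windows, also chosen for their change, the WT libraries were both above the EKO libraries. At Kcnk12 the gap was only from 18.9 to 18.1 tags. P2ry12 windows fell at 2 of the 3 PWK-only sites, by 2.27 ± 0.412 (limma adjusted p = 0.000383) at the site above and by 2.39 ± 0.326 (limma adjusted p = 1.83e-05) at an intronic site 1390 bp from the start, which was named after its values were seen. At the third the log2 change was −0.24 (limma adjusted p = 0.492).

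By gene list, limma called 2 of 14 tested PWK-only windows near microglia identity genes lower, both at P2ry12. It called 2 of 7 SPRET-only windows lower, both at Sall1. Of all windows tested, 7.56% were lower. Because the EKO deletion removes the super-enhancer of Sall1 itself, the 2 Sall1 losses say nothing about other identity genes. Limma called no window of this list higher (8.68% of all windows), and edgeR and DESeq2 called the same numbers. At an unadjusted p below 0.05, 3 PWK-only windows were lower and 2 higher, and 2 and 0 SPRET-only windows. Over all 55285 windows, limma had 10113 lower and 9489 higher at that level. Near TGF-beta and SMAD genes none of 4 PWK-only and 1 SPRET-only windows was called by any of these tools, with 1 lower and 2 higher, and 1 and 0, at an unadjusted p. Near the factor genes 1 of 10 PWK-only windows was higher by limma and 2 by edgeR and by DESeq2, and none of 5 SPRET-only windows was called by any of them (3 lower and 3 higher, and 0 and 1, unadjusted). The window called by limma lay near Ets2, an ETS factor gene, and was named after its values were seen. It held 13.1 and 5.97 tags in WT and 103 and 37.3 in EKO, both above the WT values. In the lipid list the only tested PWK-only window lay in an intron of the cholesterol exporter gene Abcg1, with 396 and 256 tags in WT and 296 and 101.5 in EKO, and was lower (log2 change −1.11, limma adjusted p = 1.04e-05), although the deposited values of WT and EKO overlapped.

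Since the level filter is a mean over all 4 libraries, windows low in WT could pass it only through EKO, and the low WT levels among the largest gains follow in part from that choice. At the SPRET leader in Hs3st1 the tags were 2.87 and 2.99 in WT and 185 and 41.1 in EKO, a log2 change of 3.88 ± 0.435 (limma adjusted p = 1.85e-06). The other 3 were near Gpr65, an acid-sensing receptor gene (36.1 and 15.9 in WT, 399 and 92.6 in EKO), Vcam1, an adhesion molecule gene (15.6 and 18.9 against 224 and 81.4), and in the intron of Cd38, an NAD-consuming ectoenzyme gene (9.85 and 2.99 against 79.3 and 33.6). All EKO libraries were above all WT libraries in these windows, which were likewise chosen for their change.

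For PWK the largest gain lay near Gm9733 (chr3:15284544-15284957, score 22, 749824 bp from a C57 peak), with 3.28 and 3.98 tags in WT and 286 and 105 in EKO, a log2 change of 4.65 ± 0.337 (limma adjusted p = 6.66e-09). The site nearest to Hook1 lay in an intron of Fggy, 117209 bp from the Hook1 start and 254 bp from a C57 peak. It was listed in both strains, and its window had 2.46 and 6.97 tags in WT against 176 and 50.03 in EKO. Kctd16 had 9.44 and 6.97 against 226 and 66.5. As deposited, these 3 gains, the Hs3st1 gain and the losses at Mlph and the Sall1 intron were called too, with limma adjusted p from 3.77e-05 to 0.0114. EKO library 1, the library with the higher level throughout, was the higher EKO library in all 7 gains described.

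**Figure D5:**
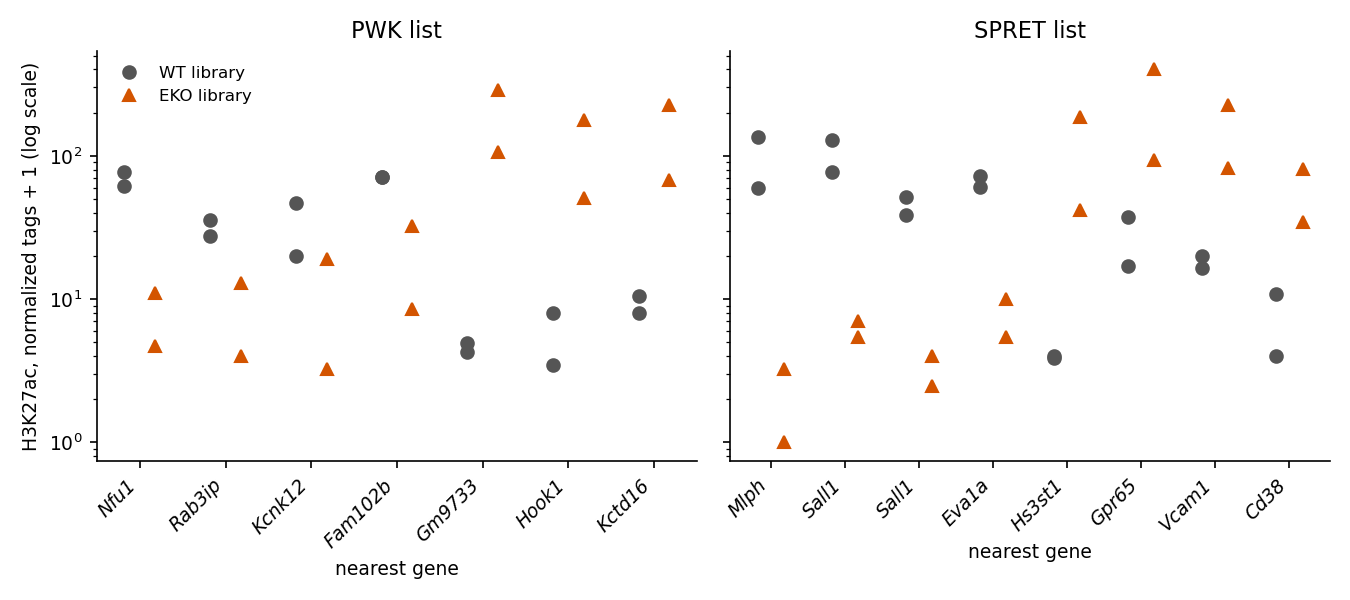
H3K27ac (normalized tags + 1, log axis) in the 2 WT (circles) and 2 EKO libraries (triangles) at the windows with the 4 largest called losses under PWK-only (left) and SPRET-only sites (right), and at 3 of the 4 largest called gains under PWK-only and the 4 largest under SPRET-only sites, named by the nearest gene. WT and EKO libraries do not overlap at any of the 15 windows, which were chosen for their change, so this separation follows in part from that choice.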

How the data were processed

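The authors mapped reads to mm10 with Bowtie2, made HOMER tag directories, called peaks per library at relaxed settings and kept those reproducible by IDR below 0.05, 1 list per group; no strain-specific genomes are named in the sources used here. The deposited peak lists give an IDR score and an enrichment score. The deposited microglia table gives a signal, tags per 10000000 in 133129 windows of 1000 bp. The nuclei lists, as deposited, hold, for each called region, a tag signal scaled by depth and its ratio to input; their depth is unknown. The submitters' processing notes also name DESeq2.

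Overlaps needed 1 bp. Genes are the nearest protein-coding start site in GENCODE vM21. Tags came out whole within 0.05 for 100% of values, so depths could be recovered. Windows with a mean above 16 tags were tested with limma 3.58.1 (R 4.3.3, trend) on quantile-normalized log2(tags + 1), a pseudocount that understates changes of low windows, with Benjamini-Hochberg adjustment over 55285 windows; the fit was tested on simulated data. Alternatives were edgeR 4.0.16 and DESeq2 1.42.0 on recovered tags, other scalings, filters, overlaps and libraries left out.

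The members and lists were chosen with earlier results of these data known. Named per list were the 6 highest scores, up to 10 sites in both lists, 5 highest WT H3K27ac, 4 largest called losses and gains, 5 with p300 and SMAD4, the 5 genes nearest to most sites, up to 3 examples per gene list, and 3 sites on each side of the rule; 1 of the PWK-only gains is not reported here.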

Additional observations from a re-analysis of the deposited data

How the results depend on the processing

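Leaving out sites within 1000 bp of a C57 peak (969 PWK-only and 548 SPRET-only remained) moved no share of sites in open windows, p300 or SMAD4 beyond its interval; applied to these shares, it was chosen after seeing the data. Keeping only scores at or above the list's median left 342 and 177 sites and raised the PWK-only share in windows to 78.7%. With the peak centre required in a window the shares were 62.6% and 67.4%. A p300 overlap of at least 100 bp gave 6.85% in PWK. The stronger part of the p300 list gave 4.81% and 8.73%, and that of the SMAD4 list 2.61% and 6.89%. With the peak centre in a called region of nuclei, the PWK-only shares were 47.9% (PU1 EKO), 10.9% and 11.2% (NeuN WT and EKO) and 12.3% and 12.7% (Olig2), and the SPRET-only shares 51.5%, 11.03%, 12.3%, 13.02% and 12.7%. With single nuclei libraries, PWK-only shares ran from 25.4% to 55.8% in PU1 and SPRET-only shares from 32.2% to 61.0%.

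As deposited, 0 PWK-only windows were lower and 6 higher in EKO, and 2 and 1 SPRET-only windows. Leaving out 1 library gave 0 to 23 lower and 0 to 26 higher in PWK-only, and 0 to 14 and 0 to 7 in SPRET-only windows; such fits rest on 3 libraries. The median change relative to all windows ran from −0.08 to 0.01 in PWK-only and from −0.19 to −0.16 in SPRET-only windows with 1 library left out. edgeR, DESeq2, a pseudocount of 8 and no level filter kept these counts within 1.5 times. The replicate block, a pairing by replicate number, gave 43 (7.64%) lower and 53 (9.41%) higher PWK-only windows. The SPRET-only counts were 33 (10.15%) and 19 (5.85%), and 8.11% and 8.97% of all windows were called. After quantile normalization, same-numbered libraries deviated together at a correlation of 0.036. That step removes shifts of whole libraries, so this value cannot show whether same-numbered libraries were prepared together. Of 32 windows named for score, level, change or listing in both strains, 17 were called. Of these, 11 lost their call as deposited and all 17 without WT library 1 or EKO library 1, and none changed direction where called. With 2 libraries a group, depth limits what could be called at low windows.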
